A study of Mus musculus with 29 samples.

Results

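The 9 genes described here encode enzymes that oxidise or hydrolyse foreign compounds in mouse tissue. They are the cytochrome P450 genes Cyp1a1, Cyp1b1, Cyp2b10 and Cyp4b1, the flavin-containing monooxygenase genes Fmo1 and Fmo2, the aldehyde oxidase genes Aox1 and Aox3, and the carboxylesterase gene Ces1d. They were picked by name, with earlier results of these data known, from the 22779 gene identifiers of the expression table. All 9 passed the filter on low values, which left 14616 genes with at least 1 FPKM in at least 4 libraries. FPKM, the fragments of a gene scaled to its transcript length and to the size of the library, is a level per length, so the levels of different genes can be set side by side. Aox3 alone among the 9 had 2 lines for its identifier. The line with the higher mean was used, and both are described because they ran opposite courses.

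The tissue was the alveolar septum, the wall between the airspaces, isolated by laser capture microdissection from frozen lung sections of wild-type C57BL/6 mice. The laser cuts were placed to leave out large vessels and bronchi. Each of the 29 libraries of total RNA depleted of ribosomal RNA came from 1 animal, and no group was treated or carried a modified allele. The ages fell into 4 stage groups: 4 prenatal embryos, of E16.5 or E18.5, 8 postnatal saccular pups between P0.5 and P2.5 (the ages P0.5, P1, P1.5 or P2.5), 8 early alveolar pups of P4, P5, P7 or P10, and 9 late alveolar mice from P13.5 to P28 (ages P13.5, P15, P19, P23, P28). Every age had 2 animals apart from P28, which had 1. The study asked which genes change while the gas-exchange surface forms and matures.

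Cytochrome P450 enzymes sit in the membrane of the endoplasmic reticulum and insert an oxygen atom into a substrate, with electrons supplied by the reductase encoded by Por. Flavin-containing monooxygenases oxidise nitrogen and sulfur atoms, and aldehyde oxidases, which are cytosolic molybdenum enzymes, oxidise aldehydes and nitrogen-containing rings. Carboxylesterases split esters and amides. Inhaled compounds reach the lung directly, and the adult lung of the mouse carries several of these enzymes at high levels, with club cells of the airway a known site of P450 expression and endothelium a known site of CYP1A1 induction through the Ah receptor.

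The summed FPKM of a library lay between 318176 and 457706, and between 10114 and 13059 genes reached 1 FPKM. The depth in reads is unknown, and intervals or detection limits that need it cannot be given. Among 8623 coding genes with a median of at least 5 FPKM, P19 pup d listed 578 at 0, P10 pup a 416 and P19 pup f 242, against at most 112 in any other library. A value of 0 is therefore given as listed at 0. For 14 of the 29 libraries, Xist and Y-linked genes did not match the labelled sex, which was left out of the models except in 1 alternative with sex as a covariate.

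The genes lie at 7 places, on 6 chromosomes, of the mm10 genome (GRCm38; positions from RefSeq GRCm38.p6). Cyp1a1 spans chr9:57687928-57703824 with 7 exons, Cyp1b1 chr17:79706940-79715061 with 3 exons, Cyp2b10 chr7:25897658-25926624 with 9 exons, and Cyp4b1 chr4:115624698-115647721 with 12 exons. Fmo1 at chr1:162829561-162866610 and Fmo2 at chr1:162874317-162898758 are neighbours on the reverse strand, 7706 bp apart, with 9 exons each. Aox1 at chr1:58029809-58106410 and Aox3 at chr1:58113135-58202221 are neighbours on the forward strand, 6724 bp apart, with 35 exons each. Ces1d spans chr8:93166072-93197804 with 14 exons. Of all stretches of 50 bases in the longest coding transcript, 10.3% of those in Cyp4b1 were shared with 2 of its pseudogenes, 9.69% of those in Cyp2b10 with other Cyp2b genes, 3.55% of those in Cyp1a1 with Cyp1a2 and 1.28% of those in Ces1d with other Ces1 genes. The levels of these 4 genes are uncertain for this reason, by an amount that these shares do not measure. No stretch was shared for the other 5, among them Aox3, whose 2 lines still differed.

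The bases before the start sites are shown for 2 sets: Cyp1a1 and Cyp1b1, known targets of the Ah receptor whose levels differed in course, and Cyp2b10, Cyp4b1 and Fmo2, which were called higher together in the late alveolar group. Each run holds the 250 bases before the start site in RefSeq (GRCm38.p6), read 5′ to 3′ on the strand of the gene, and 7 of the 9 genes had an entry. Capitals mark, on either strand, the letters GCGTG (core of the Ah receptor element), AGAACA (a core recognised by the glucocorticoid receptor), AGGTCA (a core recognised by nuclear receptors) and TATAAA (the TATA element), none of which overlapped another in these windows.
Cyp1a1: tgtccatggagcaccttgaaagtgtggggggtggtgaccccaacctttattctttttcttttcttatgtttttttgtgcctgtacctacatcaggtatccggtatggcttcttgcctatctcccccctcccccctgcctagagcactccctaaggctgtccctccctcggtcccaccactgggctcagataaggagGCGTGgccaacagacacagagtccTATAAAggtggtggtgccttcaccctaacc
Cyp1b1: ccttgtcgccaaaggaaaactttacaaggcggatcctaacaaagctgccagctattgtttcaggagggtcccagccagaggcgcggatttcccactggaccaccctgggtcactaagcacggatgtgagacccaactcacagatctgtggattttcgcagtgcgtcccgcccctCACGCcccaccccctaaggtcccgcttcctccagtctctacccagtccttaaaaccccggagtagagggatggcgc
Cyp2b10: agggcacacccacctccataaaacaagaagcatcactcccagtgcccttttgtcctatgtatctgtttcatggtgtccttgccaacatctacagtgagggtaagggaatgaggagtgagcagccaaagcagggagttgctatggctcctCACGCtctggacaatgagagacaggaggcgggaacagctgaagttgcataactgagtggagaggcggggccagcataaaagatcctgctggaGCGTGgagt
Cyp4b1: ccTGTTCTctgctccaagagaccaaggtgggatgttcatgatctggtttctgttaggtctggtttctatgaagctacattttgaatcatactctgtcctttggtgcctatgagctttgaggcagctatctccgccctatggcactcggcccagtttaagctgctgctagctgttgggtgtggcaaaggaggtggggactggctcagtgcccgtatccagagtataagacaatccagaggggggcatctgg
Fmo2: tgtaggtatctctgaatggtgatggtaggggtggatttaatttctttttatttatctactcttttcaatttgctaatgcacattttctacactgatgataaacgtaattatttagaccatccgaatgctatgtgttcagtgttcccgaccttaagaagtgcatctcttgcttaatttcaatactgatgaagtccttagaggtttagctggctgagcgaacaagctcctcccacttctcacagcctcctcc

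These windows are chr9:57697363-57697612 (forward strand, inside the annotated span of Cyp1a1), chr17:79715062-79715311 (reverse), chr7:25897408-25897657 (forward), chr4:115647722-115647971 (reverse) and chr1:162898759-162899008 (reverse). GCGTG stood 54 to 50 bases before the start of Cyp1a1, with TATAAA 30 to 25 bases before it. In Cyp1b1 the core stood on the opposite strand, 76 to 72 bases before the start. Cyp2b10 held GCGTG on the opposite strand at 101 to 97 bases and on its own strand at 9 to 5 bases. In Cyp4b1 AGAACA stood on the opposite strand at 248 to 243 bases, and the Fmo2 window held none of the 4. A second start site of Fmo2 had AGAACA 125 to 120 bases and AGGTCA 9 to 4 bases before it. Aox1 held GCGTG on the opposite strand 137 to 133 bases before its start and Aox3 on its own strand 125 to 121 bases before it. Among 32851 windows of the same length, 28.2% held GCGTG, 16.1% AGAACA, 14.0% AGGTCA and 12.4% TATAAA. A match describes letters and is not evidence of binding.

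Summed over the 9 genes, the level was 277 ± 206 FPKM (SD, n = 4) in the prenatal group, 249.8 ± 57.1 (n = 8) in the postnatal saccular, 196 ± 45.6 (n = 8) in the early alveolar and 633 ± 222 (n = 9) in the late alveolar group. Most of that sum came from a few genes. Fmo2 made up 28.3% to 65.4% of it in the prenatal libraries, 12.3% to 25.3% in the early alveolar and 19.9% to 49.4% in the late alveolar libraries, and Fmo1 made up 28.9% to 53.9% in the early alveolar libraries. By geometric mean the late alveolar order was Fmo2, Fmo1, Cyp4b1, Ces1d, Cyp2b10, Aox1, Aox3, Cyp1a1 and Cyp1b1, and the ranges of every pair of neighbours in that order overlapped. In the prenatal group Fmo2 was followed by Ces1d and Aox3, again with overlapping ranges.

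**Figure D1:**
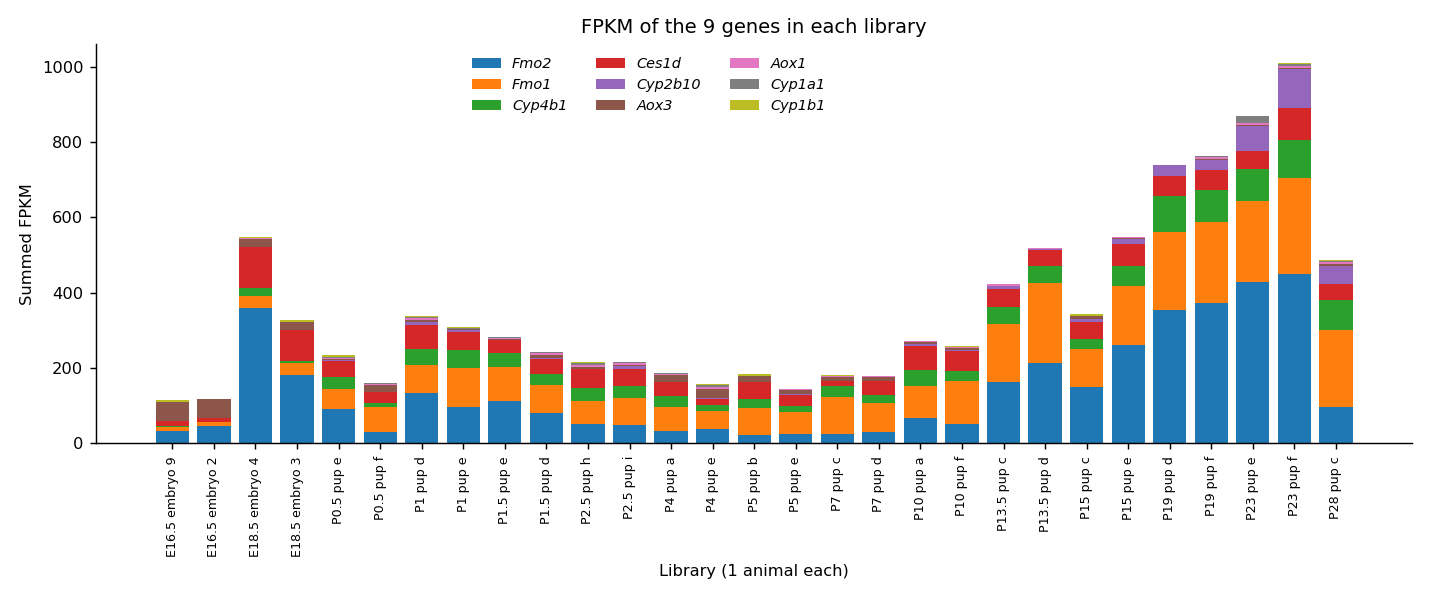
Stacked FPKM of the 9 genes in each of the 29 libraries, ordered by age, with 1 bar per animal. The 2 lowest bars are those of E16.5, at 115 and 118 FPKM, and the tallest, P23 pup f, reaches 1010 FPKM, most of it Fmo2 and Fmo1.

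The changes between stages below are differences of mean log2(FPKM + 1), which understate the change of a gene near 0, with the standard error (SE) of a limma fit of all 29 libraries. An adjusted p is limma's, after Benjamini-Hochberg correction over all 14616 genes, and a gene was called where it fell under 0.05. A fitted course over age, a natural cubic spline, was called for 7 of the 9 genes, beside 30.7% of all genes tested. The 7 were Fmo1 (adjusted p = 7.1e-09), Cyp2b10 (2.2e-07), Cyp4b1 (5.1e-07), Cyp1a1 (1.2e-04), Aox3 (0.00432), Fmo2 (0.00806) and Aox1 (0.0427). The Aox1 call was lost without any of 13 single libraries. For Ces1d and Cyp1b1 the adjusted p was 0.301 and 0.244.

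**Figure D2:**
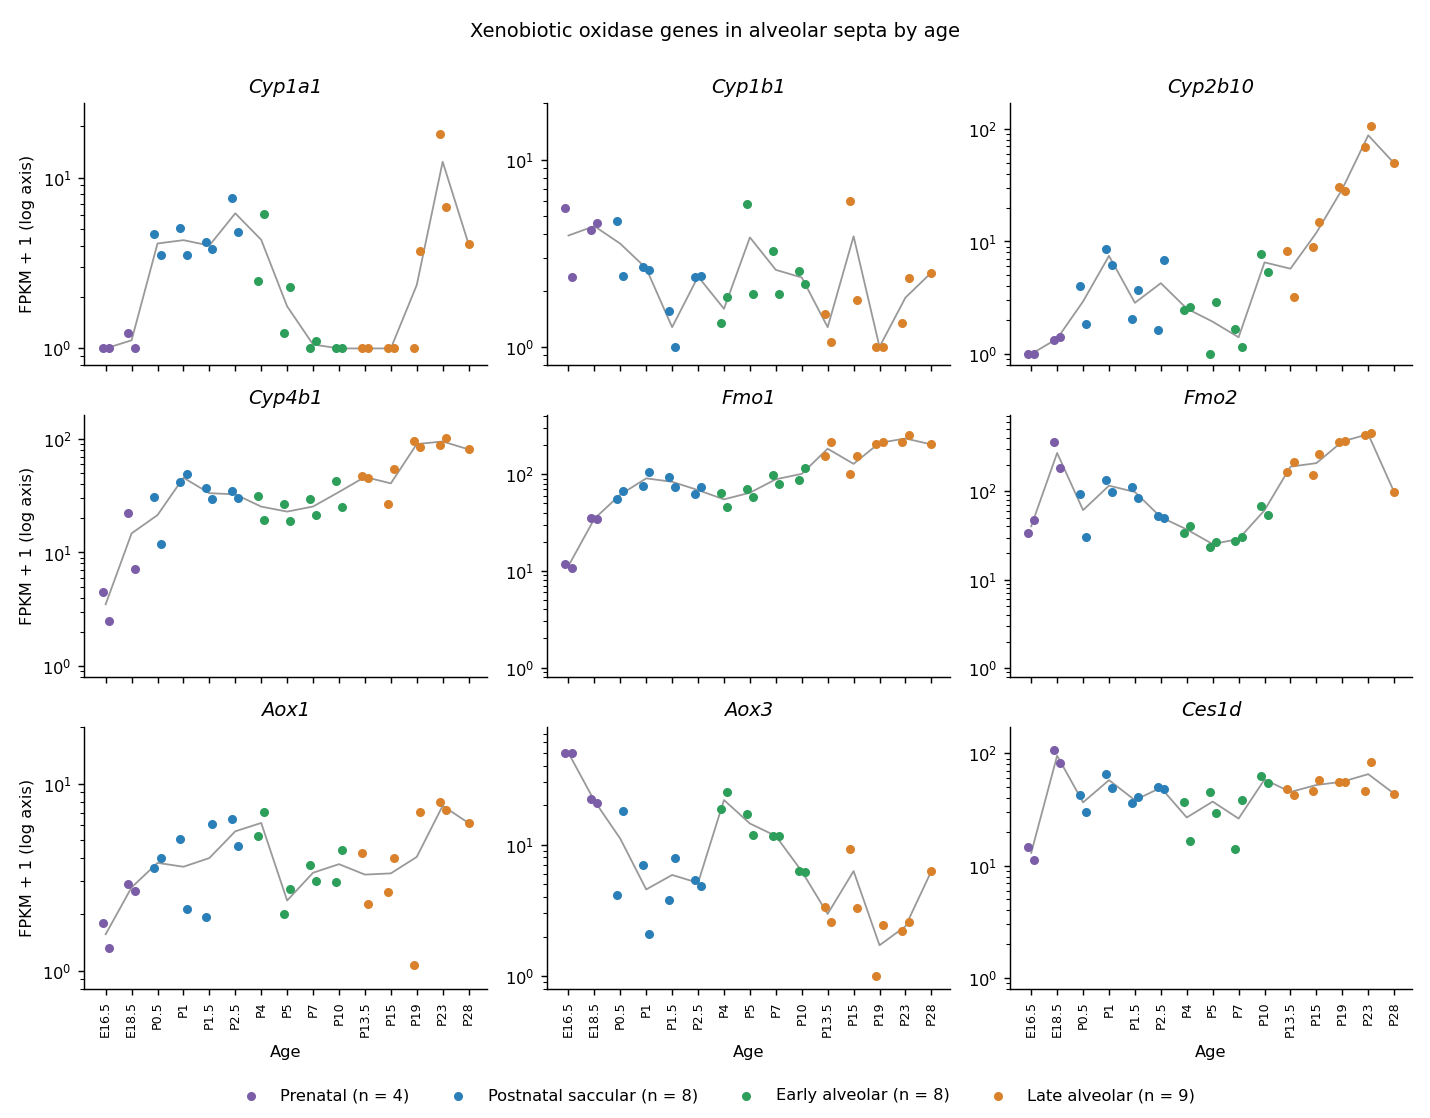
FPKM + 1 of each gene on a log axis against age, with 1 point per animal coloured by stage group and a grey line through the age means. Fmo1, Cyp4b1 and Cyp2b10 reach their highest levels from P19 to P28, Fmo2 has a first peak at E18.5 and a second at P23, and Cyp1a1 is listed at 0 in 11 libraries, 3 prenatal and 8 between P7 and P19.

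Between the prenatal and postnatal saccular groups, Fmo1, Cyp4b1 and Cyp1a1 rose, and the line of Aox3 that was used fell. On the scale of FPKM + 1, Fmo1 rose 3.79-fold and Cyp4b1 4.78-fold. Cyp1a1 went from values at or near 0 to at least 2.53 FPKM in every newborn library. The other 5 genes were not called. These 3 genes called higher and 1 called lower stand beside 9.11% and 6.81% of all genes in those directions, 15.9% together, and the median change was 0.91 over the 9 genes and -0.0041 over all genes.

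Fmo1, which encodes a flavin-containing monooxygenase, stood at 10.7 and 9.83 FPKM in the E16.5 embryos and at 33.9 and 33.4 in the E18.5 embryos. In the postnatal saccular libraries it ran from 54.6 through a median of 73.3 to 104, so no value overlapped with the prenatal ones. The change was 1.92 (SE 0.28, adjusted p = 2.6e-05), and against E18.5 alone it was 1.11 (adjusted p = 0.0189). Fewer cells of a type and less RNA per cell cannot be told apart in such samples, here or for any gene below.

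Cyp4b1, a P450 of lung and kidney that activates furans such as ipomeanol, stood at 3.48, 1.51, 21.3 and 6.15 FPKM in the prenatal libraries. The postnatal saccular libraries ran from 10.8 (P0.5 pup f) through a median of 31.9 to 48.2, and 7 of the 8 lay above every prenatal value. The change was 2.26 (SE 0.40, adjusted p = 2.7e-04). Against E18.5 alone it was 1.30 and no longer called (adjusted p = 0.0863).

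Cyp1a1, the P450 most strongly induced by the Ah receptor, was listed at 0 in 3 prenatal libraries and at 0.231 FPKM in E18.5 embryo 4. All 8 postnatal saccular libraries were higher, from 2.53 through a median of 3.43 to 6.57 FPKM. The change of 2.10 (SE 0.60, adjusted p = 0.0162) depends on the pseudocount, since 3 of the 4 earlier values are 0. Leaving out E16.5 embryo 9 ended the call (adjusted p = 0.0504), as did taking the E18.5 embryos as the only prenatal ones (adjusted p = 0.148). Cyp2b10 showed a like pattern of values without a call: 0, 0, 0.334 and 0.408 FPKM before birth, and 0.626 to 7.66 with a median of 2.85 after it, with no overlap. Its change was 1.65 (SE 0.68, adjusted p = 0.0975), and it was called in 3 alternatives, the pseudocount of 0.1 (adjusted p = 0.0146), the fit of 15 ages (adjusted p = 0.00648) and the fit of only these 2 groups (adjusted p = 0.0222).

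Fmo2, the main flavin-containing monooxygenase of adult lung, had a prenatal group that was itself divided. It stood at 32.4 and 46.1 FPKM at E16.5 and at 358 and 180 at E18.5, against 29.4 to 133 with a median of 86.5 in the postnatal saccular libraries. The change was -0.45 (SE 0.48, adjusted p = 0.586) against the whole prenatal group and -1.79 (adjusted p = 0.0300) against E18.5 alone, and both E18.5 values lay above all 8 newborn values. Ces1d, the carboxylesterase also known as triacylglycerol hydrolase, was divided in the same way, at 13.7 and 10.3 FPKM at E16.5 and 107 and 81.8 at E18.5. The 8 newborn libraries lay between these, from 29.3 through 44.8 to 64.9. The change of 0.35 (adjusted p = 0.641) turned to -1.09 (adjusted p = 0.0862) against E18.5 alone.

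Aox1, the aldehyde oxidase found in most mouse tissues, stood at 0.807 and 0.324 FPKM at E16.5 and 1.92 and 1.65 at E18.5, against 0.930 to 5.46 with a median of 3.33 in the newborn libraries. The groups overlapped and the change was 0.91 (95% interval -0.0040 to 1.83, adjusted p = 0.175). Cyp1b1, a P450 of mesenchymal cells that acts on oestrogens and aromatic hydrocarbons, stood at 4.50 and 1.37 FPKM at E16.5 and 3.22 and 3.61 at E18.5. In the newborn libraries it ran from 0 (P1.5 pup d) through a median of 1.39 to 3.72, a change of -0.82 (95% interval -1.69 to 0.052, adjusted p = 0.204). Neither gene was called after birth.

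Because of this division of the embryos, the 2 embryonic ages were set against each other in a fit of the 15 ages, a comparison added after the values had been seen. Ces1d, Fmo2, Fmo1 and Cyp4b1 were called higher at E18.5, 4 of the 9 genes beside 2.52% of all genes, and none was called lower, beside 2.00% of all genes (4.53% in both directions). Ces1d differed by 2.87 (SE 0.41, adjusted p = 2.5e-04), Fmo2 by 2.69 (SE 0.40, adjusted p = 3.7e-04) and Fmo1 by 1.62 (SE 0.26, adjusted p = 7.3e-04). Cyp4b1 differed by 1.92 (SE 0.49, adjusted p = 0.0293), and that call was lost without E16.5 embryo 2 (adjusted p = 0.314) or E18.5 embryo 4 (adjusted p = 0.418). Only 2 animals stand at each age. Heart muscle markers moved with it, the summed level of 5 genes (Myh6, Myl7, Tnnt2, Tnni3 and Actc1) being 1103 and 1918 FPKM in the E16.5 libraries and 38.1 and 118 in the E18.5 libraries. Summed levels of most other cell types were higher at E18.5, from 115 and 112 to 689 and 734 FPKM for alveolar type 1 markers, from 5427 and 2222 to 13852 and 17045 for alveolar type 2, from 369 and 419 to 1022 and 838 for endothelium, from 83.5 and 67.8 to 1273 and 518 for macrophages, from 169 and 298 to 1209 and 1059 for club cells, and from 102 and 41.5 to 324 and 243 for ciliated cells. Fibroblast markers went from 759 and 815 to 1124 and 1277 FPKM, and mesothelial markers from 24.9 and 30.1 to 86.3 and 93.0. Pericyte and smooth muscle markers were lower at E18.5, at 205 and 203 FPKM against 287 and 315 at E16.5. The part of all these in the difference was not tested.

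**Figure D3:**
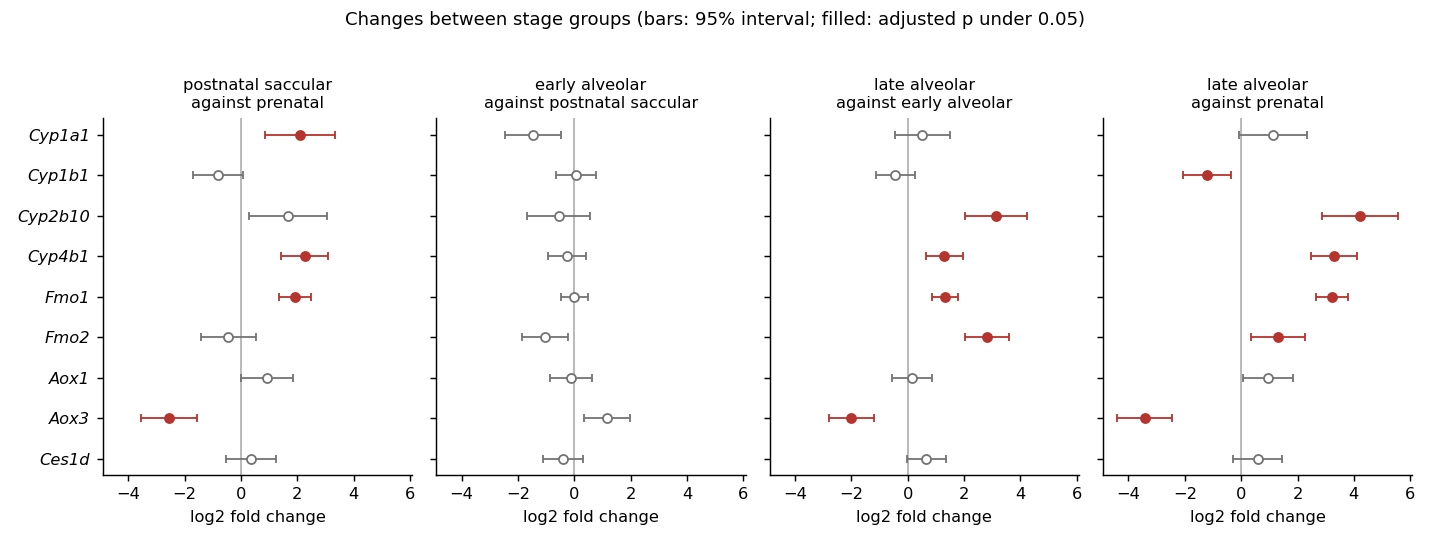
Change of each gene between stage groups on the log2(FPKM + 1) scale (points) with its 95% interval (bars), in 4 panels, where filled red points have an adjusted p under 0.05. Fmo1 and Cyp4b1 lie to the right of 0 in 3 panels, none of the 9 is filled in the step from postnatal saccular to early alveolar, and between the early and late alveolar groups Cyp2b10 lies at 3.13 and Fmo2 at 2.80, with Aox3 shown by the used line, whose direction turns with the other line.

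From the first days after birth to the early alveolar stage, none of the 9 genes was called by limma, beside 1.46% of all genes (0.527% higher, 0.937% lower). At an unadjusted p under 0.05 there were 3 of the 9 genes, beside 13.1% of all genes. These 3 were Cyp1a1 and Fmo2, with lower values in the early alveolar group, and the used line of Aox3, with higher values. The median change was -0.26 over the 9 genes and -0.031 over all genes. Cyp1a1 stood at 1.49 and 5.16 FPKM at P4, 0.23 and 1.30 at P5, 0 and 0.109 at P7, and was listed at 0 in both animals at P10. The early alveolar values thus lay below all 8 postnatal saccular ones in 7 of 8 libraries, P4 pup e being the exception. Its change of -1.48 (SE 0.49, adjusted p = 0.136) was called in the fit of 15 ages (adjusted p = 0.00745) and with only these 2 groups (adjusted p = 0.0283). Fmo2 ran from 22.7 through a median of 31.1 to 67.3 FPKM in the early alveolar libraries, with the highest values in both P10 animals. Its change was -1.05 (SE 0.39, adjusted p = 0.201), called in the fit of 15 ages (adjusted p = 0.00542). Fmo1, at 45.2 to 114 FPKM with a median of 73.9, changed by -0.0057 with a 95% interval from -0.48 to 0.46. Cyp4b1 ran from 17.9 through 25.1 to 42.0 FPKM and Ces1d from 13.1 through 36.9 to 62.1, both overlapping with the postnatal saccular values.

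On the scale of FPKM + 1, late alveolar Cyp2b10 rose 8.75-fold, Fmo2 6.95-fold, Fmo1 2.49-fold and Cyp4b1 2.47-fold over the early alveolar group, and the used line of Aox3 fell. These 4 genes called higher stand beside 3.89% of all genes, and the 1 called lower beside 7.47% (11.4% together). The median change was 0.66 over the 9 genes and -0.093 over all genes. With quantile normalization, which moved the split of all calls from 568 higher and 1092 lower to 741 and 864, the same 4 rose.

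Fmo2 ran from 96.8 through a median of 262 to 450 FPKM in the late alveolar libraries, all above the early alveolar maximum of 67.3. The change was 2.80 (SE 0.38, adjusted p = 9.5e-06). Within the group, values stood at 164 and 213 at P13.5, 151 and 262 at P15, 355 and 371 at P19, and 430 and 450 at P23. The only P28 animal had the lowest value, 96.8 FPKM. Fmo1 ran from 99.5 through 205 to 255 FPKM, and 8 of the 9 libraries lay above every early alveolar value, the exception being P15 pup c. Its change was 1.31 (SE 0.22, adjusted p = 1.8e-04).

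Cyp2b10, the phenobarbital-inducible P450 of mouse liver, stood at or below 6.73 FPKM in all early alveolar libraries and was listed at 0 in P5 pup b. It stood at 7.24 and 2.22 FPKM at P13.5, 7.92 and 14.0 at P15, 29.4 and 27.1 at P19, 68.2 and 105 at P23, and 48.5 at P28. All but P13.5 pup d exceeded every early alveolar library. The change was 3.13 (SE 0.54, adjusted p = 2.1e-04), and mean Cyp2b10 levels were 2.10 FPKM in the early and 34.4 in the late alveolar group. Cyp4b1 ran from 25.9 through 80.1 to 101 FPKM, with 8 of 9 libraries above every early alveolar value, and changed by 1.30 (SE 0.32, adjusted p = 0.00697).

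Cyp1a1 returned late within this group. It was listed at 0 in all 4 animals at P13.5 and P15 and in P19 pup d, and stood at 2.70 FPKM in P19 pup f, 17.0 and 5.75 in the P23 animals and 3.08 at P28. Against the early alveolar group the change was 0.51 (SE 0.48, adjusted p = 0.562). In a comparison of P19 to P28 with P13.5 and P15, added after the values had been seen, Cyp1a1 and Cyp2b10 were called higher, 2 of 9 genes beside 0.239% of all genes, and none was called lower, beside 0.595% (0.835% together). Cyp2b10 changed by 2.69 (SE 0.45, adjusted p = 0.00549), which was not called with a pseudocount of 0.1 (adjusted p = 0.0919). For Cyp1a1 the adjusted p was 0.0138, with no fold given because the earlier libraries are at 0. That call was lost without P13.5 pup c (adjusted p = 0.0511), P15 pup c (0.0727) or P15 pup e (0.0514).

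Ces1d stood at 41.9 to 83.0 FPKM with a median of 46.8 in the late alveolar group, overlapping with the early alveolar values. Its change over the early alveolar group was 0.66 (95% interval -0.039 to 1.35, adjusted p = 0.235), called only in the fit of 15 ages (adjusted p = 0.0413). Aox1 ran from 0.0663 (P19 pup d, the library richest in zeros) through 3.24 to 7.00 FPKM, against 1.01 to 6.04 in the early alveolar group, and changed by 0.15 (95% interval -0.58 to 0.87). Cyp1b1 was low in all 29 libraries, between 0 and 5.02 FPKM, with an early alveolar median of 1.04. In the late alveolar group 7 of 9 libraries lay under 1.37 FPKM, the lowest prenatal value.

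Over the whole course, from the prenatal to the late alveolar group, Cyp2b10, Cyp4b1, Fmo1 and Fmo2 were called higher and Cyp1b1 and the used line of Aox3 lower. The 4 higher and 2 lower stand beside 12.7% and 18.3% of all genes (31.0% together), and the median change was 1.13 over the 9 genes and -0.16 over all genes. The changes were 4.22 (SE 0.67, adjusted p = 1.8e-05) for Cyp2b10, 3.30 (SE 0.40, adjusted p = 3.1e-07) for Cyp4b1 and 3.23 (SE 0.28, adjusted p = 5.3e-10) for Fmo1, and the late values of these 3 genes all lay above their prenatal values. The share of all genes without overlap between groups was not counted, for this or any other comparison, so such separation describes values only. The Fmo2 change of 1.30 (SE 0.47, adjusted p = 0.0356) was -0.04 against E18.5 alone and was lost without E16.5 embryo 9, E16.5 embryo 2, or any of the P19 and P23 animals (adjusted p from 0.0525 to 0.263). For Cyp1b1, 4.50, 1.37, 3.22 and 3.61 FPKM in the prenatal libraries compared with a late median of 0.491. Its change of -1.22 (SE 0.42, adjusted p = 0.0269) was lost without E16.5 embryo 9 (adjusted p = 0.102), E18.5 embryo 4 (0.0604) or E18.5 embryo 3 (0.0661). The Cyp1b1 call was also lost against E18.5 alone, in the fit of only these 2 groups, and without P10 pup a and the P19 pups, the libraries rich in zeros. Both P19 pups were listed at 0 for Cyp1b1. Aox1 (0.95, adjusted p = 0.0988) and Ces1d (0.58, adjusted p = 0.306) were not called, though leaving out P19 pup d gave 0.0201 for Aox1 and leaving out E18.5 embryo 4 gave 0.0414 for Ces1d. Quantile normalization moved that median of all genes to -0.012 and the split of calls from 1860 higher and 2674 lower to 2327 and 2177. Relative to that shift the 4 genes called higher stayed called, Aox1 was called too (1.30, adjusted p = 0.0140), and Cyp1b1 was not (adjusted p = 0.0743).

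Aox3 gave results that depend on which of its 2 lines is read. The line used stood at 49.0 and 48.9 FPKM at E16.5 and 21.4 and 19.8 at E18.5. It ran from 1.11 through 4.12 to 17.0 in the postnatal saccular libraries, from 5.24 through 10.8 to 24.2 in the early alveolar libraries and from 0 through 1.60 to 8.28 in the late alveolar libraries. The other line stood at 0.985 and 0.744 FPKM at E16.5, 10.6 and 6.43 at E18.5, 0.732 to 6.49 and 0.586 to 4.74 in the next groups, and 4.45 to 20.4 in the late alveolar group. Across the 29 libraries the 2 lines had a Pearson correlation of -0.54 on the log2(FPKM + 1) scale. The used line had its highest values in the embryo, and the other had its 3 highest at P19 and P23.

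**Figure D4:**
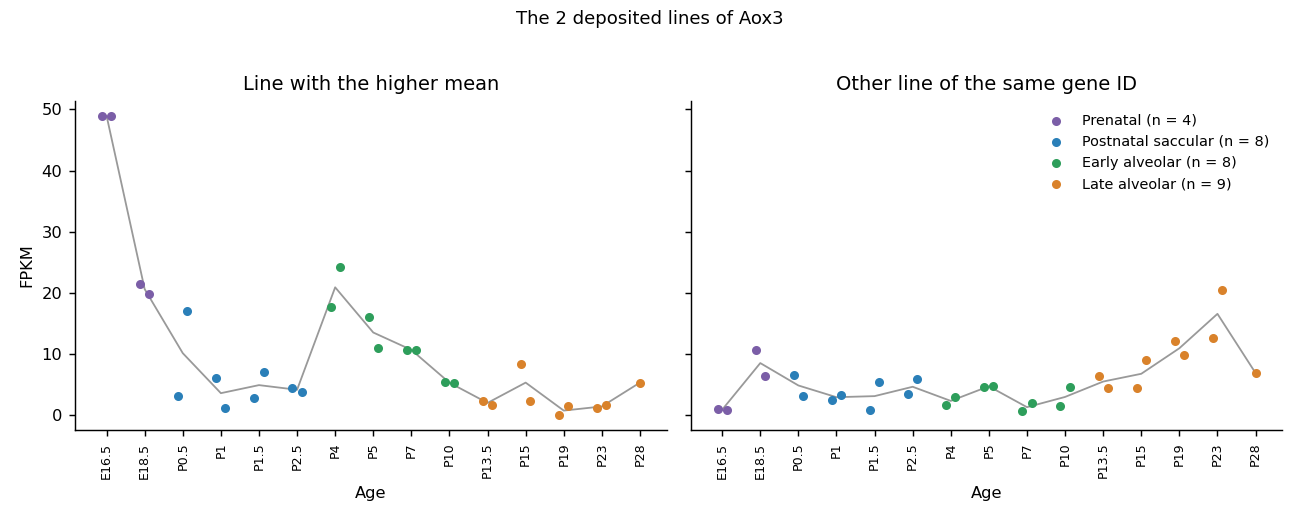
FPKM of the 2 lines of Aox3 in each animal by age, with points coloured by stage group and a grey line through the age means. The line with the higher mean starts at 49.0 FPKM at E16.5 and falls below 10 in the late alveolar group, where the other line reaches 20.4 FPKM.

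With the used line, Aox3 changed by -2.57 (SE 0.49, adjusted p = 5.1e-04) after birth, by -2.004 (SE 0.39, adjusted p = 8.2e-04) from early to late alveolar and by -3.42 (SE 0.48, adjusted p = 3.5e-06) from prenatal to late alveolar. With the other line these changes were 0.10 (adjusted p = 0.916), 1.47 (adjusted p = 0.00847) and 1.22 (adjusted p = 0.0437), so the direction turned in each. With the lines summed they were -2.04 (adjusted p = 1.3e-04), -0.26 (adjusted p = 0.602) and -1.62 (adjusted p = 4.5e-04). Against E18.5 alone the used line changed by -1.96 after birth (adjusted p = 0.0632). From postnatal saccular to early alveolar the used line changed by 1.15 (adjusted p = 0.161), called without P0.5 pup f (adjusted p = 0.0459). The table does not tell which line measures the Aox3 transcript, and no direction is given for the gene.

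The balance within each enzyme family was compared by the ratio of 2 genes in the same library, as log2 of the quotient of FPKM + 1, with exact two-sided permutation tests adjusted over 12 comparisons. Fmo2 exceeded Fmo1 in all 4 prenatal libraries, with a mean log2 ratio of 2.35 ± 0.77 (SD, n = 4). The ratio was -0.019 ± 0.66 (n = 8) in the postnatal saccular group and -1.06 ± 0.58 (n = 8) in the early alveolar group, where Fmo1 exceeded Fmo2 in every library. It was 0.42 ± 0.65 (n = 9) in the late alveolar group. The steps were -2.37 (exact adjusted p = 0.00346), -1.04 (0.00886) and 1.48 (0.00346), and late against prenatal was -1.93 (0.00346).

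Cyp1b1 exceeded Cyp1a1 in every prenatal library, with a log2 ratio from 1.25 to 2.46, while in the postnatal saccular libraries it ran from -1.94 to 0.0082. The step was -2.92 (exact adjusted p = 0.00346), followed by 1.53 (exact adjusted p = 0.0181) to the early alveolar group. From there to the late alveolar group it was -0.96 (exact adjusted p = 0.245), with single values from -3.74 to 2.59. Late against prenatal it was -2.35 (exact adjusted p = 0.0336). That result was lost without any 1 of the 4 prenatal libraries, P19 pup f or P23 pup f (exact adjusted p from 0.0507 to 0.0793). It was also lost with the E18.5 embryos alone (exact adjusted p = 0.119) or without P10 pup a and the P19 pups (0.0661). Both genes are low, and the sizes depend on the pseudocount. With a pseudocount of 0.1 the 3 steps of the Cyp1b1 to Cyp1a1 ratio were -6.17, 3.39 and -1.825, and late against prenatal was -4.61. Which of them had an exact adjusted p under 0.05 did not change. The Aox3 to Aox1 ratio fell from 3.98 ± 1.20 (n = 4) to 0.50 ± 0.77 (n = 8) after birth with the used line, a step of -3.48 (exact adjusted p = 0.00346), and with the other line the step was -0.81 (exact adjusted p = 0.124). Its later steps with the used line, 1.25 (exact adjusted p = 0.00974) and -2.15 (exact adjusted p = 0.00346), turned to -0.26 (exact adjusted p = 0.586) and 1.33 (exact adjusted p = 0.0193) with the other.

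**Figure D5:**
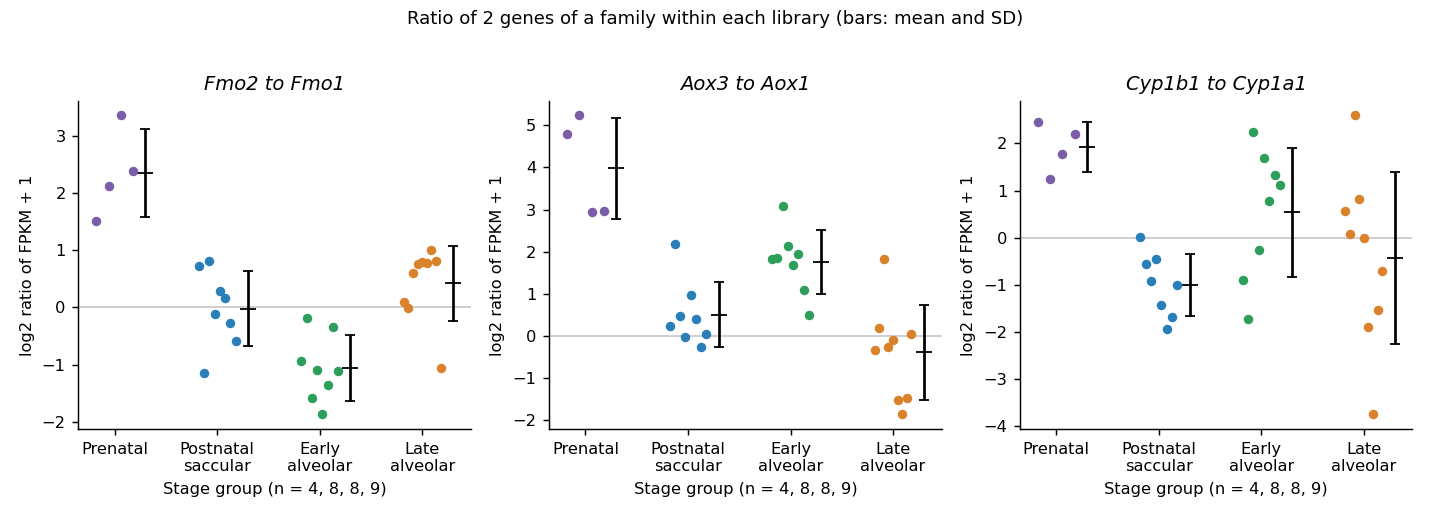
Log2 ratio of FPKM + 1 of 2 genes within each library, by stage group, with 1 point per animal and black bars for the mean and SD. The Fmo2 to Fmo1 ratio is above 0 in all prenatal and below 0 in all early alveolar libraries, and the Aox3 panel shows the used line.

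The genes most like each of the 9 over the 29 libraries, by Pearson correlation of log2(FPKM + 1) among 8922 genes, share the ages and libraries of the comparison and are given as a description. For Fmo1 they were Tdrd6 (r = 0.976), Ptprb (0.967) and Thbd (0.951), the last 2 known as genes of endothelium. For Cyp4b1 they were Tdrd6 (0.930), Arhgef3 (0.923) and Sptbn1 (0.921), and Fmo1 itself correlated with Cyp4b1 at 0.922. Fmo2 was most like Inmt (0.895), a methyltransferase gene of lung, Xdh (0.884), which encodes xanthine dehydrogenase, and Zbtb16 (0.853), a known glucocorticoid-responsive gene. Cyp2b10 was most like Por (0.885), Gsn (0.861) and Jade2 (0.857).

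The low genes had weaker neighbours. They were Lyve1 (0.754), Slc44a2 (0.746) and Usp54 (0.730) for Cyp1a1, and Tor1aip2 (0.733), Api5 (0.723) and Fkbp14 (0.713) for Cyp1b1. For Aox1 they were Pisd (0.723), Tnfsf13 (0.677) and Kmt2e (0.657). Ces1d was most like Lrrk2 (0.782), a gene of alveolar type 2 cells, Arhgef26 (0.772) and Clic5 (0.761), an alveolar type 1 marker. The used line of Aox3 was most like Rmdn3 (0.970) and the cell cycle genes Aspm (0.955) and Ccna2 (0.947). The other line was most like Aldh1a1 (0.772), Ddi2 (0.760) and Rin2 (0.746), and correlated at 0.718 with Fmo2 and 0.676 with Cyp2b10.

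Among the partners of these enzymes, Por, whose reductase feeds electrons to all microsomal P450 enzymes, had means of 18.1, 35.5, 33.2 and 64.9 FPKM in the 4 groups in order of age. It rose by 0.91 after birth (SE 0.26, adjusted p = 0.0172; 0.79 and adjusted p = 0.188 against E18.5 alone) and by 0.97 from early to late alveolar (SE 0.21, adjusted p = 0.00227). Of 6 electron transfer partners tested, 2 were higher after birth (Por and Cyb5r3) and 1, Por, late. Of 10 tested regulators, Keap1, which restrains Nrf2, was called higher after birth (0.74, adjusted p = 0.0432), and Nfe2l2, which encodes Nrf2, was called higher from early to late alveolar (0.60, adjusted p = 0.0422). Leaving out 1 library at a time ended the Keap1 call in 9 of 29 fits, with 0.39 (adjusted p = 0.311) without E18.5 embryo 4, and the Nfe2l2 call in 10 of 29, with 0.44 (adjusted p = 0.0948) without P10 pup a. Ahr, the receptor behind Cyp1a1 induction, had means between 42.5 and 53.5 FPKM and Arnt, its partner, between 25.8 and 28.3, and neither was called between stages.

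Of 14 tested P450 genes of families 1 to 4 outside the 9, Cyp2f2, the naphthalene-activating P450 of club cells, was higher after birth (1.86, adjusted p = 0.00306; 1.20 and adjusted p = 0.207 against E18.5 alone), and Cyp4v3 late (1.42, adjusted p = 0.0233). From prenatal to late alveolar, 3 were higher (Cyp2f2, Cyp2d22 and Cyp4v3). That Cyp4v3 call was lost in 17 of 29 fits that each left out 1 library, with 0.76 (adjusted p = 0.312) without E16.5 embryo 9, its call from early to late alveolar without P10 pup a (adjusted p = 0.0511), and the Cyp2d22 call without E16.5 embryo 2 (adjusted p = 0.0790). Of 10 other flavin and molybdenum enzyme or cofactor genes, Xdh rose from a mean of 9.41 to 66.1 FPKM between the early and late alveolar groups, by 2.67 (SE 0.33, adjusted p = 1.8e-06). Mocs1, which acts in molybdenum cofactor synthesis, was higher after birth (0.88, adjusted p = 0.0325), and Mocos, the sulfurase of that cofactor, was higher in the late alveolar than in the prenatal group (1.21, adjusted p = 0.0322). Of 4 tested carboxylesterases, Ces2g was called over the whole course alone (1.45, adjusted p = 0.0281).

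Of 29 conjugating enzymes and hydrolases, 1 was higher (Gstm1) and 2 lower (Gstm5 and Gstm2) after birth, and 5 were higher late (Inmt, Ephx1, Sult1a1, Gsta3 and Gstm1). Inmt stood at 0 to 12.1 FPKM in the early alveolar libraries and 59.9 to 314 in the late alveolar ones, a change of 6.07 (SE 0.70, adjusted p = 6.5e-07). Ephx1, the microsomal epoxide hydrolase that acts on P450 products, rose by 1.70 (SE 0.32, adjusted p = 6.0e-04). Sult1a1, a phenol sulfotransferase, rose by 1.27 (adjusted p = 0.00940). Of 7 tested exporters, 1 was higher (Abcb1a) and 2 lower (Abcg2 and Abcc1) from early to late alveolar. Abcg2 fell by 1.29 after birth (adjusted p = 0.0208) and by 1.11 from early to late alveolar (adjusted p = 0.0156). Abcb1a, which encodes P-glycoprotein, rose late by 0.81 (adjusted p = 0.0164). Abcc3 rose after birth by 1.24 (adjusted p = 0.0102), and Abcc5 was higher in the late alveolar than in the prenatal group by 0.51 (adjusted p = 0.0270). The calls of Cyp2f2, Abcg2, Abcc3, Gstm1, Mocs1 and Por after birth were lost against E18.5 alone, as were those of Cyp2f2, Cyp2d22, Cyp4v3, Xdh, Mocos, Ces2g, Gstm1, Abcc3 and Abcc5 from prenatal to late alveolar, and no gene of these 7 lists was called from postnatal saccular to early alveolar. From prenatal to late alveolar, 4 of the 29 conjugating genes were higher and 4 lower, 3 of the 7 exporters were higher and 1 lower, and 1 of 10 regulators and 2 of 6 electron transfer partners were higher, beside 12.7% of all genes higher and 18.3% lower. After birth these shares of all genes were 9.11% and 6.81%, and from early to late alveolar 3.89% and 7.47%. The median change from early to late alveolar was 0.37 over the other P450 genes, 0.20 over the flavin and molybdenum genes, 0.31 over the carboxylesterases, 0.19 over the conjugating genes, 0.089 over the electron transfer partners, 0.073 over the exporters and 0.053 over the regulators, beside -0.093 over all genes. Leaving out single libraries also ended calls of Mocs1 (6 of 29 fits), Gstm1 (3) and Abcg2 (3) after birth, of Gstm1 (9) from early to late alveolar and of Mocos (4) from prenatal to late alveolar. Without E16.5 embryo 9 the calls of Por (0.0992) and Abcc3 (0.0735) after birth had an adjusted p past 0.05, as did, without E16.5 embryo 2, those of Abcc3 after birth (0.0959) and of Ces2g (0.0714), Abcc3 (0.172) and Abcc5 (0.193) from prenatal to late alveolar. Abcc3 in that last comparison was also lost without E16.5 embryo 9 (0.118), and Ces2g without E18.5 embryo 4 (0.118). Ahr, Arnt, Abcc1, Gstm2, Gstm5 and Gsta3 were named after their values were seen. Cyb5a and Ces1h were not analysed here.

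Cell type markers moved with several of these results, and their part in them was not tested. Of 7 endothelial markers, 6 were higher after birth and all 7 in the late alveolar against the prenatal group, with summed levels of 369 to 1022 FPKM in the prenatal, 847 to 1512 in the postnatal saccular, 975 to 1402 in the early alveolar and 1088 to 1894 in the late alveolar libraries, and Tek alone was called from early to late alveolar. The late alveolar library lowest in Fmo1 and Cyp4b1, P15 pup c, also had the lowest sums for endothelial (1088 FPKM), alveolar type 1 (623) and ciliated cell markers (185). The one highest in both genes, P23 pup f, had the highest sums for endothelial (1894), ciliated (611), club cell (4949) and macrophage markers (2884). Of 4 tested club cell markers, Scgb1a1 and Cyp2f2 were higher after birth and none was called from early to late alveolar. From prenatal to late alveolar Scgb1a1 and Cyp2f2 were higher and Scgb3a2 lower. Scgb3a2 had means of 480, 351, 216 and 68.0 FPKM in the 4 groups in order of age, and Scgb1a1 184, 2145, 2469 and 3032. Sums over the 5 club cell markers ran from 169 to 1209, 613 to 4947, 959 to 5714 and 895 to 4949 FPKM. Bpifa1 and Muc5b had medians under 1 FPKM in every group. Among these, Bpifa1 was at 0 in all libraries of 3 groups. In the 9 late alveolar libraries, club cell sums were 4143 and 895 FPKM at P13.5, 2164 and 4741 at P15, 1155 and 2056 at P19, 4298 and 4949 at P23 and 4091 at P28, where Cyp2b10 stood at 7.24 and 2.22, 7.92 and 14.0, 29.4 and 27.1, 68.2 and 105, and 48.5. Of 6 alveolar type 2 markers 3 were higher after birth, of 6 alveolar type 1 markers 3, of 5 ciliated markers 2, and of 5 macrophage markers 1. Of 6 pericyte and smooth muscle markers, 3 were higher after birth and 1, Cspg4, lower. Fibroblast markers had Npnt higher and Pdgfra lower, heart muscle markers had Actc1 lower, and no mesothelial marker was called. Of all genes, 9.11% were higher and 6.81% lower after birth. From early to late alveolar these shares were 3.89% and 7.47%, and from prenatal to late alveolar 12.7% and 18.3%. From early to late alveolar, macrophage markers had 2 higher, fibroblast markers 2 higher and 4 lower, and pericyte and smooth muscle markers 3 lower. In the same step Clic5 alone of the alveolar type 1 markers was higher, and Msln alone of the mesothelial markers was lower. Alveolar type 1 markers summed to 112 to 734 FPKM before birth and 759 to 1429 after it, and alveolar type 2 markers to 2222 to 17045 and 8620 to 21954. Macrophage markers summed to 506 to 935 FPKM in the early and 809.8 to 2884 in the late alveolar libraries.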

How the data were processed

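Values were the FPKM table that the authors deposited for 29 libraries of microdissected mouse alveolar septa. Submitters' processing notes name STAR 2.5.1, Cufflinks 2.2.1 and the mm10 build, and the FPKM are as deposited, with no read counts or depth. The table held 24486 lines for 22779 gene IDs, of which 22718 matched a RefSeq symbol. Of the 1226 IDs on several lines (944 with lines that differ), that of highest mean was kept. Because FPKM divides by the library total, a few very abundant genes can move all others, and counting error cannot be given.

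Genes with at least 1 FPKM in at least 4 libraries (14616) entered limma 3.58.1 (R 4.3.3; lmFit, contrasts, eBayes with trend) on log2(FPKM + 1), in 1 fit of 4 stage groups taken from the labelled ages, with Benjamini-Hochberg adjustment and a threshold of 0.05. Courses over age were tested by limma's F test on a natural cubic spline (3 df) of log2 embryonic age, birth being set at day 19. The comparisons of E18.5 with E16.5 and of P19 to P28 with P13.5 and P15 came from a fit of 15 ages. Ratios were tested by exact two-sided permutation in Python 3.11.15 (scipy 1.17.1), adjusted over 12 comparisons. The limma fits were tested on simulated data.

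The 9 genes and the lists of pathway genes and markers were chosen with earlier results of these data known. Named genes were all 9 members, the 3 genes most correlated with each and, from each pathway list, up to 4 genes with the smallest adjusted p. Alternatives were a pseudocount of 0.1, no filter or a mean of at least 5 FPKM, median ratio scaling, quantile normalization, summed lines, labelled sex as a covariate, other groupings and each library left out. The other Aox3 line and the 2 comparisons from the fit of 15 ages were chosen after seeing the data. Every library was 1 animal, and labels do not say which animals shared a litter. Promoter windows and gene positions came from RefSeq GRCm38.p6.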

Additional observations from a re-analysis of the deposited data

Results flagged for a closer look

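In all, 3 single values stood apart from their group by Dixon's criterion at the 95% level, among 36 group tests, in which about 1 in 20 would be marked by chance. Cyp1a1 stood at 0.2315 FPKM in E18.5 embryo 4, with the other 3 prenatal libraries listed at 0. Because those 3 values tie, any level above 0 would have been marked, so this mark does not speak to its size. Cyp4b1 stood at 10.82 FPKM in P0.5 pup f, and the nearest of the other 7 postnatal saccular libraries at 28.7. Ces1d stood at 82.97 FPKM in P23 pup f, and the nearest of the other 8 late alveolar libraries at 57.3.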

How the results depend on the processing

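Changes are on the log2 scale and adjusted p-values are limma's. With the E18.5 embryos as the only prenatal ones, 1 of the 9 genes was called higher after birth in place of 3, Ces1d turned to -1.09 after birth and -0.85 from prenatal to late alveolar, Fmo2 turned to -0.042 in the latter, 1 gene rather than 2 was called lower there, and the Cyp1b1 to Cyp1a1 ratio was -2.41 (exact adjusted p = 0.119). From prenatal to late alveolar, 1 gene was also called lower with a mean of at least 5 FPKM (low genes untested), quantile normalization, the other Aox3 line, only 2 groups, and without P10 pup a, P19 pup d and P19 pup f. Without these 3 libraries the same ratio was -2.20 (exact adjusted p = 0.0661) and Cyp1b1 was 0.052 between P19 to P28 and the 2 ages before. With the alveolar stage divided after P7, that ratio was 1.30 from postnatal saccular to early alveolar (exact adjusted p = 0.0567). In that step, 2 genes were called lower in the fit of 15 ages and 1 with only 2 groups, against 0. Between P19 to P28 and the 2 ages before, 1 gene was called higher, against 2, with a pseudocount of 0.1 or a mean of at least 5 FPKM. Near 0, Fmo1 turned to 0.0059 from postnatal saccular to early alveolar with median ratio scaling, and Aox1 to -0.0067 from early to late alveolar with a pseudocount of 0.1.

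With the other line, Aox3 was 0.10 after birth, -0.36 from postnatal saccular to early alveolar, 1.47 from early to late alveolar, 1.22 from prenatal to late alveolar, 2.32 for E18.5 against E16.5 and 0.77 between P19 to P28 and the 2 ages before (0.48 with the lines summed). No gene was then called lower after birth (0), nor from early to late alveolar with the other line or the lines summed (0 in both). The Aox3 to Aox1 ratio was -0.81, -0.26, 1.33 and 0.26 in the 4 stage comparisons with the other line, and -0.41 from early to late alveolar with the lines summed.

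Leaving out 1 library at a time gave ranges of -0.98 to 0.17 for Fmo2 and -0.19 to 0.89 for Ces1d after birth. From postnatal saccular to early alveolar they were -0.13 to 0.21 for Cyp1b1, -0.096 to 0.093 for Fmo1, -0.25 to 0.015 for Aox1, and 0 to 1 gene called higher. From prenatal to late alveolar 1 to 2 genes were called lower, and the Cyp1b1 to Cyp1a1 ratio ran from -2.72 to -1.93, with its call lost in 6 of 29 fits. For E18.5 against E16.5, Cyp1a1 ran from 0 to 0.30 and Cyp1b1 from -0.32 to 0.89. Between P19 to P28 and the 2 ages before, 1 to 2 genes were called higher and Cyp1b1 ran from -0.75 to 0.14. The causes of these shifts were not tested. No paired analysis was possible because the letters of the animals pair none across ages. The depth in reads is unknown, so the precision of the low genes Cyp1a1, Cyp1b1 and Aox1 cannot be separated from counting error.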
